A study of Mus musculus with 12 samples.

Results

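The 10 genes described here are read out in cells of the megakaryocyte and red cell lineages: Pf4, Itga2b, Gp1bb and Gp9 of megakaryocytes and platelets, Gata1 and Gfi1b, transcription factors of both lineages, and Klf1, Epor, Car1 and Car2 of the erythroid lineage. They were chosen by symbol, and all 10 were among the 19910 gene symbols of the count table. RNA was sequenced from mouse bone marrow after retroviral transduction, in 12 libraries, 3 in each of 4 groups. The groups received empty vectors only, mutant SETBP1 (D868N) with an empty vector, mutant NRAS (G12D) with an empty vector, or SETBP1 (D868N) with NRAS (G12D), and are called empty, SETBP1, NRAS and both mutants. The series title asks whether mutant SETBP1 strengthens the MAPK signalling that NRAS drives.

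In every group, controls included, the marrow came from female C57BL/6J mice of 6 to 10 weeks and was exposed to virus collected 48 and 72 h after transfection of a packaging line derived from human kidney cells. Expression was driven from integrated vectors, whose promoters the labels do not name, and not from the endogenous loci. The labels call the cells of all 4 groups leukemia cells, including those with empty vectors. They give neither the time from transduction to harvest nor any sorting step. Nor do they say whether the replicates of a group came from separate mice or cultures, so the p-values measure the spread between these samples, which may be technical.

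Megakaryocytes and red cells arise from a shared progenitor, and both fates depend on GATA1, a zinc-finger factor that binds GATA motifs together with partners such as FOG1, TAL1 and LMO2. GFI1B is a repressor needed in both lineages, while KLF1 drives the globin and other erythroid genes. Megakaryocytes make platelets, which carry the integrin αIIb, the von Willebrand factor receptor (glycoproteins Ib, IX and V) and granules filled with platelet factor 4. Erythroid precursors depend on erythropoietin through its receptor and make carbonic anhydrases to handle carbon dioxide. GATA1 is also made by mast cells, basophils and eosinophils, so the RNA of a gene on this list is not proof of the lineage.

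The promoters of 4 genes are shown because these genes moved differently from each other in the counts: Gata1 and Epor stood lowest with both mutants, Gfi1b was low in the groups with SETBP1, and Pf4 was high there. Each is the 250 bases before the RefSeq start site on the gene's strand (RefSeq, GRCm38.p6). Capitals mark the motifs searched on both strands: GATA motifs (AGATAA or AGATAG, and likewise TGATAA or TGATAG), ETS motifs (CCGGAA or else CAGGAA) and the KLF motif (CCACCC). Where the match is on the other strand, the capitals are its reverse complement. The windows lie at chrX:7967911-7968160 (minus strand) for Gata1, chr2:28621983-28622232 (minus strand) for Gfi1b, chr9:21963577-21963826 (minus strand) for Epor and chr5:90772185-90772434 (plus strand) for Pf4.
Gata1: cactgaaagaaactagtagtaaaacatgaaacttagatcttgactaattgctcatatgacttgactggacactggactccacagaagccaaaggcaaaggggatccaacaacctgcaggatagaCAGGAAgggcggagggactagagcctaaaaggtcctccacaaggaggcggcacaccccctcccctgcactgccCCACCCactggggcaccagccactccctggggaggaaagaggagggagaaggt
Gfi1b: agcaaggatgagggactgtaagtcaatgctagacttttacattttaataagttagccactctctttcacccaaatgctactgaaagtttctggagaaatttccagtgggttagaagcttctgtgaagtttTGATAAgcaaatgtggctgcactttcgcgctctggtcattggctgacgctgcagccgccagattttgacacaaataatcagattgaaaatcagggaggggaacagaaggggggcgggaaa
Epor: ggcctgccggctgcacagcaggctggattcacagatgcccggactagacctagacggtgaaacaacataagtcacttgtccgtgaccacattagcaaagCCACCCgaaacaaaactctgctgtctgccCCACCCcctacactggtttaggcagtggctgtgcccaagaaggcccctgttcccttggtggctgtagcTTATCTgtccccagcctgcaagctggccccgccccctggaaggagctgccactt
Pf4: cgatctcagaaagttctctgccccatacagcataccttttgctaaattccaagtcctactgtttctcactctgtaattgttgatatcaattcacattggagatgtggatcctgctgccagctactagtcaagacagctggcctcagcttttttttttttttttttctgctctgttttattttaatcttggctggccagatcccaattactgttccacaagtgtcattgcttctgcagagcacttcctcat
The Gata1 window held an ETS and a KLF match, the Gfi1b window a GATA match, the Epor window a GATA and KLF matches, and the Pf4 window none of these letters. Of the 8 genes with a promoter entry (Car1 and Car2 had none), 4 held a GATA match (Gp1bb, Gfi1b, Klf1 and Epor), against 26.5% of 32851 promoters of the same length. An ETS match was in 2 (Itga2b and Gata1, 35.1% of all promoters) and a KLF match in 3 (Gp1bb, Gata1 and Epor, 28.1%). All 250 bases of the Gp1bb window are Sept5 exon in GENCODE. Exons of the gene itself cover 54 bases of the Klf1 window and 180 of the Itga2b window. The Gata1 window, set by the RefSeq start, lies inside the GENCODE span of the gene (chrX:7959260-7978071). A match describes the letters only, and no match overlapped another. With both mutants against empty the 4 genes with a GATA match fell, and of the 4 without one 3 fell (Itga2b, Gp9 and Gata1) and Pf4 rose.

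Total counts per library ran from 7085894 to 8864919. Nras, the check of the labels, stood at 86.5 ± 5.75 normalised CPM (counts scaled by library size and TMM factor; SD, n = 3) in empty, 88.2 ± 3.78 in SETBP1, 1520 ± 166 in NRAS and 1559 ± 35.8 with both. Setbp1 had 0 counts in the empty and NRAS libraries and 19 and 41 in all in SETBP1 and in both, too few to measure the transgene's level. SETBP1 replicate 3 stood apart: it had 11835 genes with a count, the fewest of the 12 libraries, and correlated with the rest of its group at 0.946 and 0.953, against 0.984 to 0.991 for the other pairs within groups. In that library short genes were high and long genes low relative to the rest of its group (median log2 difference 0.21 for 207 genes under 1000 exon bases and -0.25 for 4781 genes over 5000). Values without it are therefore given beside the results that it moved most.

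Per length, the 10 genes covered a wide range in the empty group. Pf4 was highest at 106 ± 9.27 RPKM (normalised CPM per kilobase of exon; SD, n = 3), followed by Car2 at 26.5 ± 1.66, Itga2b at 16.4 ± 3.18, Gata1 at 10.0 ± 0.829 and Gfi1b at 9.46 ± 2.06. Gata1 and Gfi1b did not differ beyond their spread. Gp1bb stood at 5.91 RPKM, Klf1 at 4.50, Gp9 at 3.32, Car1 at 1.35 and Epor at 1.23, so the last 3 rest on few reads. Of 32 other erythroid genes in the table, 16 had enough counts to be tested, and the 32 summed to 504 to 638 normalised CPM over the libraries. Among those counted were Fech, the last enzyme of heme synthesis, at 74.8 in empty, and Gypc, a membrane glycophorin, at 57.5, both chosen after their values were seen. The globin genes and other late genes were at or near 0: 7 of the 32 had no count in any library (Hba-a1, Hba-a2, Hbb-bs, Hbb-bt, Slc4a1, Trim10 and Cldn13), and Alas2, the first enzyme of heme synthesis in red cells, had 0 to 3 counts in a library. The globin genes have near-identical copies. Whether the counting dropped reads shared between copies is not known, and its part in these zeros was not tested. Ptprc, the pan-leukocyte gene, was counted in all 12 libraries, at 175 to 329 normalised CPM.

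Of the 10 genes, 9 had enough counts to be tested, and Car1 did not. A gene counts as changed at a Benjamini-Hochberg adjusted p under 0.05 in edgeR's quasi-likelihood test over 10993 genes. With both mutants all 9 differed from empty, 7 lower (Itga2b, Gp1bb, Gp9, Gata1, Gfi1b, Klf1 and Epor) and 2 higher (Pf4 and Car2), where 40.6% of all genes differed, 19.8% lower and 20.8% higher. NRAS alone gave 3 lower (Itga2b, Gp1bb and Gata1) and 0 higher, where 32.5% of all genes differed, 15.5% lower and 17.0% higher. SETBP1 alone gave 2 higher (Pf4 and Car2) and 1 lower (Gfi1b), where 14.9% of all genes differed, 8.31% higher and 6.55% lower. The median log2 fold change of the 9 was -1.82 for both mutants, -0.58 for NRAS and -0.39 for SETBP1, beside -0.0094, -0.0075 and -0.012 for all genes. These 3 comparisons share the empty libraries.

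Adding SETBP1 to NRAS lowered Itga2b and Gata1 and raised Car2, 3 of the 9, where 1.91% of all genes changed, 1.38% lower and 0.528% higher. Adding NRAS to SETBP1 lowered 4 (Itga2b, Gp1bb, Gp9 and Gata1) and raised 0, where 42.4% of all genes changed, 21.5% lower and 20.9% higher. Between the single mutants 5 differed, with Pf4, Gp1bb, Gp9 and Car2 lower in NRAS and Gfi1b higher, where 40.9% of all genes differed, 20.1% lower and 20.8% higher. These numbers depended on single libraries. When SETBP1 replicate 3 was left out they were 5 for SETBP1 against empty, 5 for NRAS against empty, 10 for both against empty (Car1 was then tested) and 7 for both against NRAS. Over all genes the calls in those 4 comparisons were then 1705, 5224, 5969 and 836, against 1633, 3576, 4462 and 210 with it, so more genes passed in general. The number for SETBP1 against empty was also 5 without SETBP1 replicate 1 (Car1 was then tested and passed) and 1 without empty replicate 1.

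Counting instead the genes whose 3 libraries in a group all lay on the same side of the 3 in the other, with both mutants against empty 7 of the 9 lay lower and 2 higher, where 30.5% and 30.7% of all genes did (61.2% either way). For NRAS against empty 5 lay lower and 0 higher (27.9% and 28.4% of all genes, 56.3% either way), and for SETBP1 against empty 4 lower and 2 higher (16.5% and 16.7%, 33.2% either way). For both against NRAS 5 lay lower (Itga2b, Gata1, Gfi1b, Klf1 and Epor) and 2 higher (Pf4 and Car2), where 12.9% and 12.3% of all genes did (25.2% either way). For both against SETBP1 5 lay lower and 0 higher (24.0% and 24.8%, 48.8% either way), and for NRAS against SETBP1 4 lower and 2 higher (23.4% and 25.0%, 48.4% either way). Below, some genes are described by all libraries with a mutant against all without it. The share of all genes that separate in that way was not counted, nor for other separations that span several groups.

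**Figure D1:**
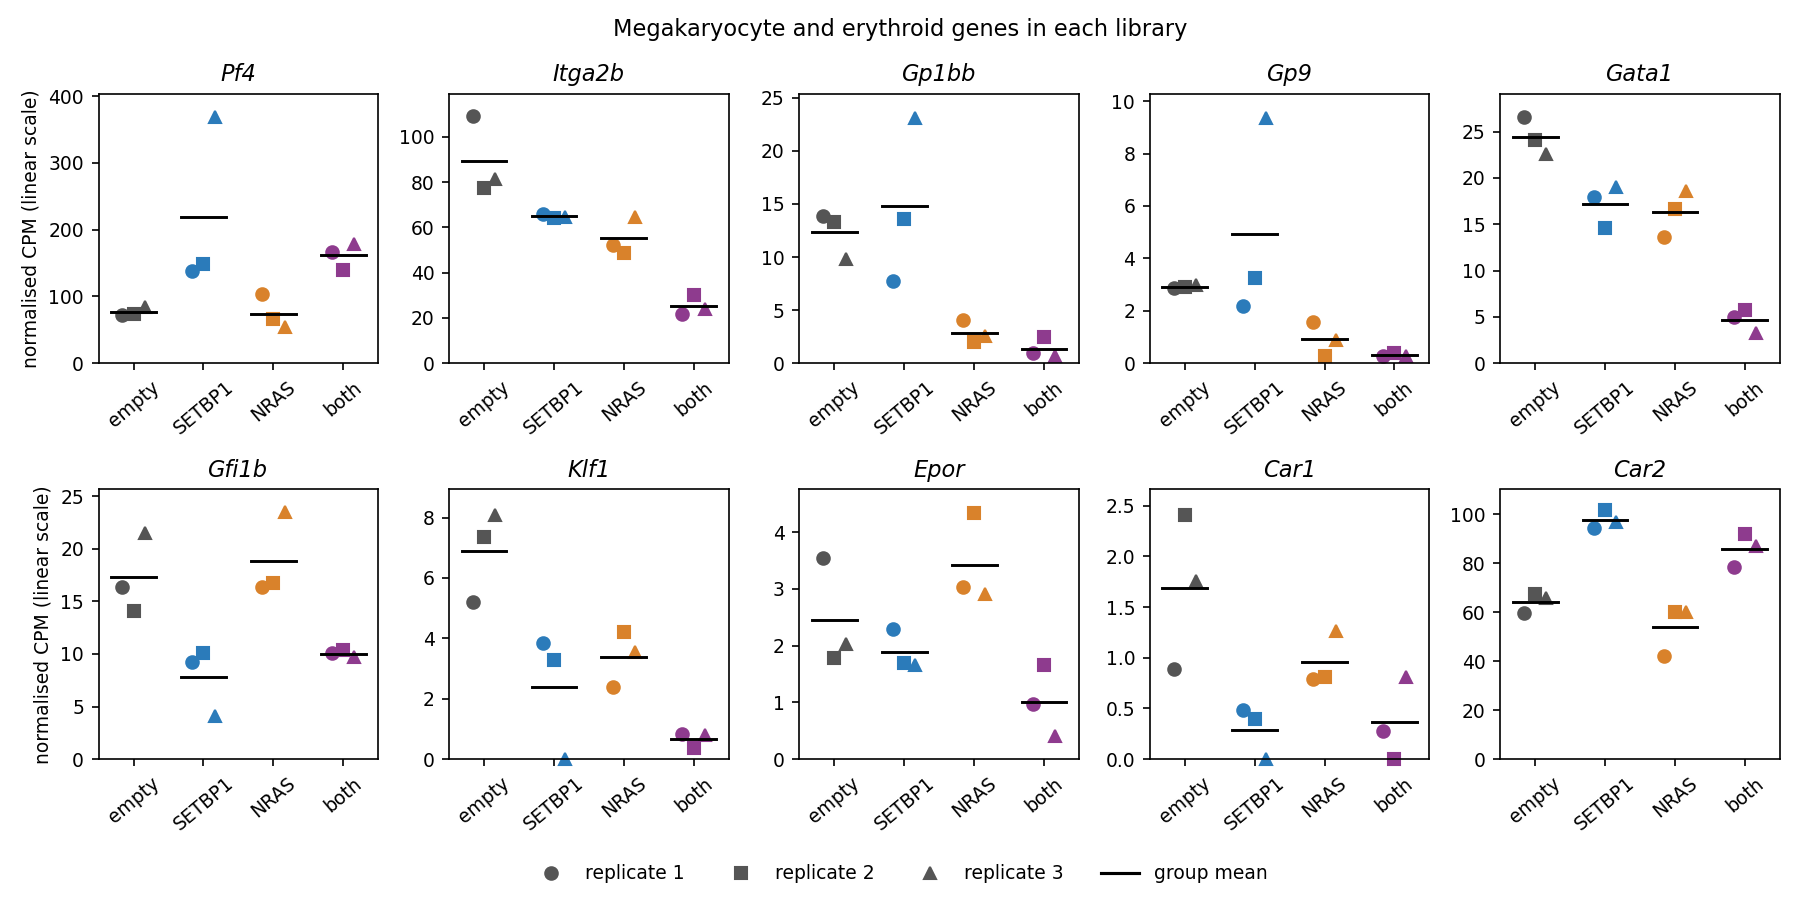
Normalised CPM (linear scale) of each of the 10 genes in the 12 libraries; symbols are replicates and bars are group means. Itga2b and Gata1 are lowest in the 3 libraries with both mutants, while Pf4, Gp1bb and Gp9 are highest in SETBP1 replicate 3.

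**Figure D2:**
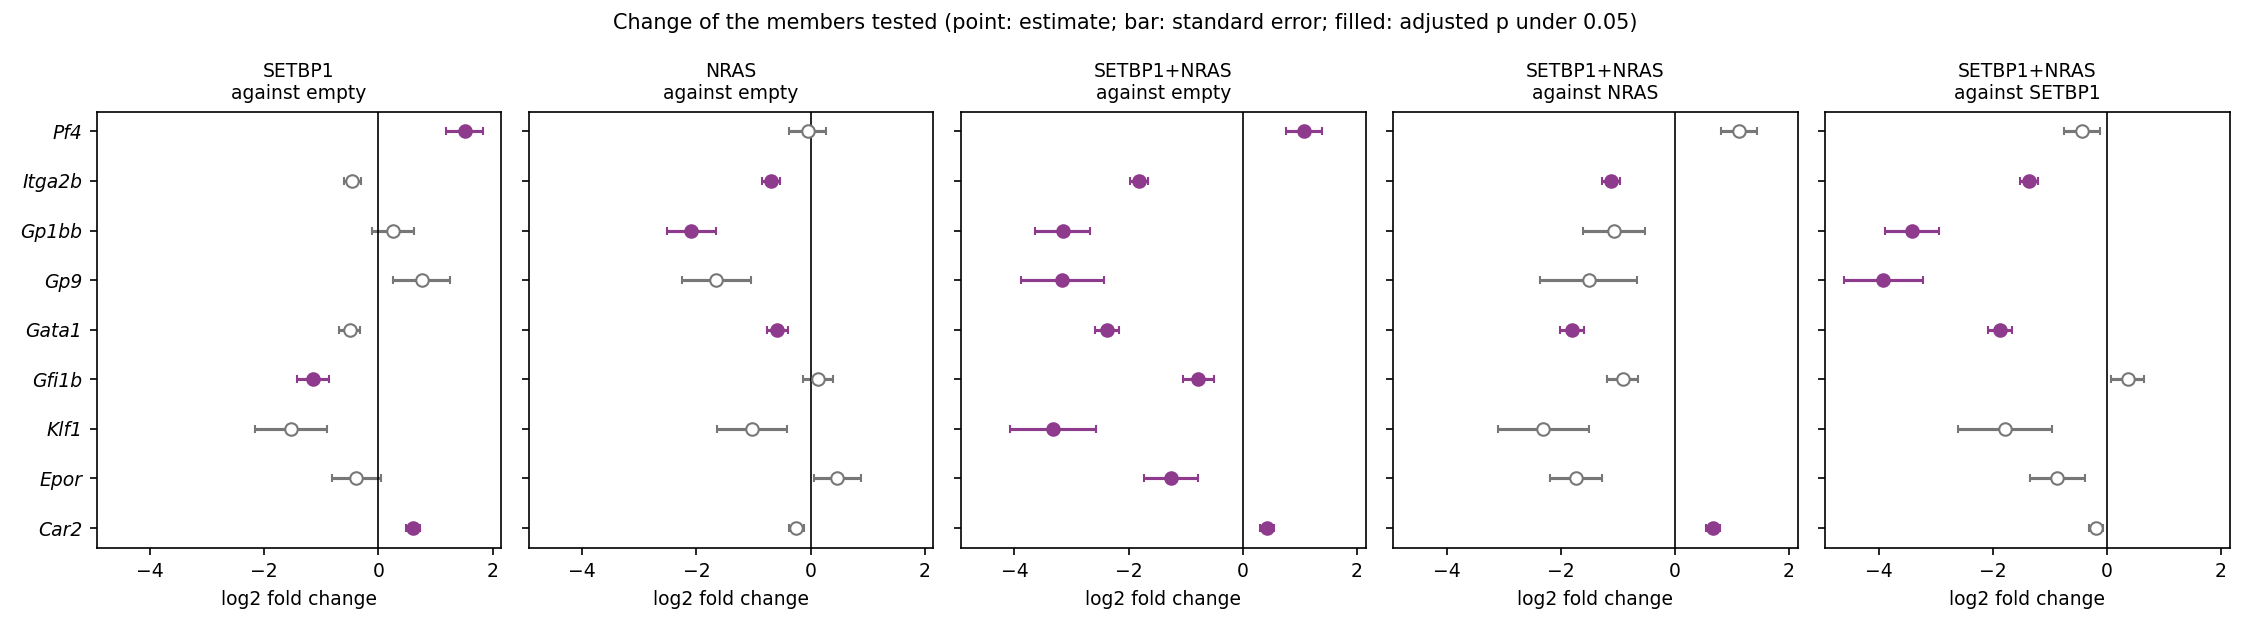
Log2 fold changes (x axis) of the 9 genes tested, in 5 comparisons; points are estimates, bars are standard errors, and filled points have an adjusted p under 0.05. All 9 points are filled for both mutants against empty, 7 of them to the left of 0.

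Gata1 (chrX:7959260-7978071, mm10, minus strand), the shared master regulator, was lower in each mutant group than in empty and lowest with both. Normalised CPM in the 3 replicates was 26.6, 24.1 and 22.5 in empty, 17.9, 14.6 and 19.0 in SETBP1, 13.6, 16.6 and 18.6 in NRAS, and 5.04, 5.76 and 3.23 with both. The empty libraries lay above all others, the SETBP1 and NRAS libraries overlapped, and those with both lay below all others. The group means were 24.4 ± 2.02, 17.2 ± 2.30, 16.3 ± 2.53 and 4.67 ± 1.30 (SD, n = 3). Gata1 fell by 2.38 on the log2 scale with both mutants against empty (SE 0.21, adjusted p 9.87e-07), by 1.80 against NRAS (SE 0.21, adjusted p 0.000701) and by 1.88 against SETBP1 (SE 0.21, adjusted p 1.25e-05). With NRAS alone it fell by 0.58 (SE 0.19, adjusted p 0.0276), a call that was lost when empty replicate 1, empty replicate 2, NRAS replicate 1 or NRAS replicate 2 was left out (adjusted p 0.0648 to 0.121). SETBP1 alone gave -0.50 (SE 0.18, adjusted p 0.0784), and -0.58 without SETBP1 replicate 3 (adjusted p 0.0335).

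Whether the change with both mutants departs from the sum of the single ones was tested as an interaction on the log2 scale. None of the 9 genes passed (0 of 9, where 0.0455% of all genes did, 0.00910% higher and 0.0364% lower), and 3 had an unadjusted p under 0.05 (Gata1, Itga2b and Gp9), as did 1420 of the 10993 genes tested. Gata1 had the smallest p, at a log2 interaction of -1.29 (SE 0.28, unadjusted p 0.00047, adjusted p 0.172). DESeq2, which called 81 genes where edgeR called 5, called Gata1 (-1.30, adjusted p 0.00944). Without SETBP1 replicate 3 edgeR called it as well, at -1.21 (SE 0.27, adjusted p 0.0326).

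Gfi1b (chr2:28609450-28621982, mm10, minus strand), the repressor that GATA1 acts with, was low in the libraries that carried SETBP1. Normalised CPM was 16.4, 14.1 and 21.5 in empty, 9.27, 10.1 and 4.14 in SETBP1, 16.4, 16.8 and 23.5 in NRAS, and 10.1, 10.4 and 9.69 with both. The 6 libraries with SETBP1 all lay below the 6 without, and empty and NRAS overlapped. Gfi1b fell by 1.15 with SETBP1 (log2, SE 0.28, adjusted p 0.0178) and by 0.78 with both mutants against empty (SE 0.27, adjusted p 0.0330). With NRAS alone it stood at 0.13 (SE 0.26, adjusted p 0.749), and with both against NRAS at -0.91 (SE 0.27, adjusted p 0.129). The call for SETBP1 was lost without empty replicate 1 (adjusted p 0.0549), without empty replicate 3 (0.0896) and when only those 6 libraries were fitted (0.116), and held without SETBP1 replicate 3 at -0.84 (adjusted p 0.00968). The call for both was lost without empty replicate 1, empty replicate 3 or any 1 of the 3 libraries with both (0.0604 to 0.137). Without SETBP1 replicate 3, Gfi1b passed for both against NRAS (-0.91, adjusted p 0.00271).

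Itga2b, the αIIb chain of the platelet fibrinogen receptor and an early mark of the lineage, had the same order of groups as Gata1 (chr11:102453297-102470122, mm10, minus strand). Normalised CPM was 109, 77.3 and 81.4 in empty, 65.9, 64.3 and 64.6 in SETBP1, 52.3, 48.6 and 64.8 in NRAS, and 22.0, 29.9 and 23.9 with both. Empty lay above all others and both mutants below all others, with NRAS replicate 3 inside the narrow SETBP1 range. Itga2b fell by 1.82 with both mutants against empty (log2, SE 0.16, adjusted p 8.21e-07), by 1.13 against NRAS (SE 0.16, adjusted p 0.00235) and by 1.36 against SETBP1 (SE 0.16, adjusted p 1.58e-05). With NRAS alone it fell by 0.69 (SE 0.15, adjusted p 0.00283). With SETBP1 alone the value was -0.46 (SE 0.15, adjusted p 0.0524), past the threshold without SETBP1 replicate 3 (adjusted p 0.0388).

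Gp1bb and Gp9 encode subunits of the receptor for von Willebrand factor and need each other to reach the platelet surface. Gp9 lies at chr6:87778072-87779768 (mm10, plus strand). Gp1bb stood at 13.8, 13.3 and 9.85 normalised CPM in empty, 7.71, 13.6 and 23.1 in SETBP1, 4.10, 2.03 and 2.54 in NRAS, and 0.979, 2.43 and 0.673 with both. Gp9 stood at 2.88, 2.92 and 2.97 in empty, 2.17, 3.27 and 9.35 in SETBP1, 1.59, 0.271 and 0.887 in NRAS, and 0.28, 0.384 and 0.269 with both. For each gene every library with NRAS lay below every library without it, the NRAS group and both mutants overlapped, and SETBP1 replicate 3 was the highest library. How many of all genes separate by NRAS in this way was not counted. The Gp9 counts with both were 2, 3 and 2, at about the floor of 3 counts (0.332 to 0.420 CPM), so its fold changes there rest on 7 reads.

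With both mutants Gp1bb fell by 3.15 against empty (log2, SE 0.48, adjusted p 0.000141) and by 3.41 against SETBP1 (SE 0.48, adjusted p 7.51e-05). Gp9 fell by 3.16 (SE 0.73, adjusted p 0.00329) and by 3.92 (SE 0.70, adjusted p 0.000553) in the same comparisons. Without SETBP1 replicate 3 the values against SETBP1 were -2.93 for Gp1bb and -3.05 for Gp9. With NRAS alone Gp1bb fell by 2.09 (SE 0.43, adjusted p 0.00201). Gp9 stood at -1.65 (SE 0.61, adjusted p 0.0509) and passed without SETBP1 replicate 1, SETBP1 replicate 3 or NRAS replicate 1 (adjusted p 0.00462 to 0.0352). Adding SETBP1 to NRAS gave -1.06 for Gp1bb (SE 0.55, adjusted p 0.511) and -1.51 for Gp9 (SE 0.85, adjusted p 0.579), and without SETBP1 replicate 3 neither passed (adjusted p 0.176 and 0.206). SETBP1 alone gave 0.26 and 0.76 (adjusted p 0.647 and 0.304), and -0.22 and -0.11 without SETBP1 replicate 3.

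The exons of Gp1bb (chr16:18620317-18622403, mm10, minus strand) overlap those of Sept5 and Gm49601 on the same strand, so reads there cannot be assigned by strand. Sept5, a septin gene, had a pattern of its own: 10.9 ± 1.41 normalised CPM in empty, 6.01 ± 1.56 in SETBP1, 12.8 ± 1.69 in NRAS and 3.67 ± 0.366 with both (SD, n = 3). It fell by 1.80 with both against NRAS (SE 0.23, adjusted p 0.00126), where Gp1bb did not pass, and stood at 0.23 with NRAS against empty (adjusted p 0.427), where Gp1bb fell. No other of the 10 genes had an exon that overlaps another gene's in the GENCODE annotation of mm10.

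Pf4 (chr5:90772435-90773383, mm10, plus strand), the platelet granule chemokine, differed from Itga2b, Gp1bb and Gp9, which fell with both mutants: it was higher with SETBP1, alone or with NRAS, and did not pass the test with NRAS alone. Normalised CPM was 71.7, 74.3 and 84.3 in empty, 138, 148 and 369 in SETBP1, 103, 65.6 and 53.6 in NRAS, and 167, 139 and 178 with both. The 6 libraries with SETBP1 all lay above the 6 without, and SETBP1 replicate 3 lay far above the rest. Pf4 rose by 1.51 with SETBP1 (log2, SE 0.32, adjusted p 0.0105), and by 0.90 without SETBP1 replicate 3 (SE 0.17, adjusted p 0.00143). It rose by 1.07 with both mutants against empty (SE 0.32, adjusted p 0.0158). With both against NRAS the value was 1.12 (SE 0.32, adjusted p 0.112), and it passed without SETBP1 replicate 3 (adjusted p 7.02e-05). With NRAS alone it was -0.05 (SE 0.32, adjusted p 0.926). The call for SETBP1 was lost without empty replicate 1 (adjusted p 0.0518) and when only those 6 libraries were fitted (0.0802). The call for both against empty was lost without empty replicate 1, empty replicate 2 or SETBP1+NRAS replicate 3 (0.0510 to 0.0582).

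Pf4 RNA is also made by some macrophages, so the 11 monocyte and macrophage genes were set beside it. Their summed level was 14827 to 17106 normalised CPM in empty, 19347, 21774 and 36578 in SETBP1, 7628 to 8477 in NRAS, and 7804 to 9355 with both. SETBP1 replicate 3 was the highest library in this sum as in Pf4. Lyz2, the lysozyme gene of myeloid cells, made up most of the sum in empty and SETBP1, and fell by 1.49 on the log2 scale with both against empty (chosen after its values were seen). Counted by gene, 6 of the 11 rose and 1 fell with SETBP1 (median log2 0.53), 2 rose and 4 fell with NRAS (-0.34), and 4 rose and 2 fell with both (0.12), so the list did not move as the sum did. Over all genes 14.9%, 32.5% and 40.6% differed in these comparisons. The part of these cells in the Pf4 levels was not tested.

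In SETBP1 replicate 3 several platelet genes stood above other genes of their length. Against the mean of the rest of its group, that library was higher by 1.37 for Pf4, 1.72 for Gp9 and 1.15 for Gp1bb on the log2 scale, where genes of similar length had medians of 0.21, 0.25 and 0.25. Other platelet genes went the same way, with P2ry12, the ADP receptor, at 2.67, Gp1ba at 1.38, Gp5 at 1.22, Ppbp at 1.18 and Treml1 at 1.15, named here after their values were seen. Not every megakaryocyte gene did: Itga2b was at -0.01, Vwf at -0.75 and Mmrn1 at -2.99. Erythroid Klf1 had 0 counts in this library and Gfi1b was at -1.17.

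**Figure D3:**
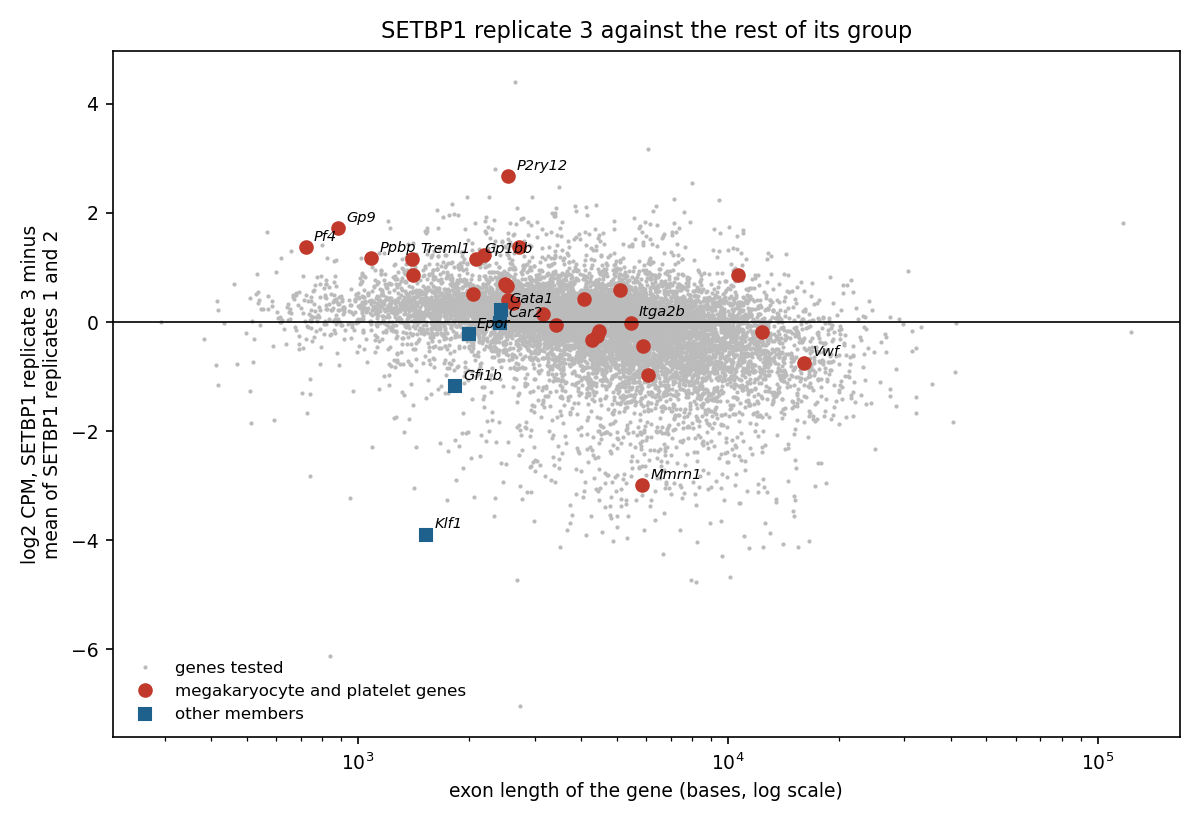
Log2 CPM of SETBP1 replicate 3 minus the mean of SETBP1 replicates 1 and 2 (y axis) against the exon length of each gene in bases (x axis, log scale); grey points are all genes tested with a length, red circles megakaryocyte and platelet genes, blue squares the other members. Pf4, Gp9 and Gp1bb lie above most genes of their length, and Klf1, with 0 counts in that library, lies far below.

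Klf1 (chr8:84901928-84905291, mm10, plus strand), the erythroid Krüppel-like factor, was lowest with both mutants. Normalised CPM was 5.20, 7.37 and 8.10 in empty, 3.85, 3.27 and 0 in SETBP1, 2.38, 4.19 and 3.55 in NRAS, and 0.839, 0.384 and 0.807 with both. All mutant libraries lay below all empty ones. The 0 in SETBP1 replicate 3 allows up to 0.355 CPM by the floor of 3 counts. Klf1 fell by 3.32 with both mutants against empty (log2, SE 0.76, adjusted p 0.00307, on 15 reads with both). It stood at -1.54 with SETBP1 (SE 0.63, adjusted p 0.108), -1.02 with NRAS (SE 0.61, adjusted p 0.222) and -2.30 with both against NRAS (SE 0.80, adjusted p 0.213). Without SETBP1 replicate 3 the standard errors were 0.32, 0.28 and 0.41, and Klf1 passed for NRAS against empty (-1.02, adjusted p 0.00627), both against NRAS (-2.30, adjusted p 0.00121) and both against SETBP1 (-2.38, adjusted p 0.000197), but not for SETBP1 against empty (-0.94, adjusted p 0.0521). Without SETBP1 replicate 1 it passed for SETBP1 against empty (-2.10, adjusted p 0.0432).

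Epor (chr9:21958897-21963506, mm10, minus strand), the erythropoietin receptor, was read from 3 to 32 counts per library. Normalised CPM was 3.54, 1.78 and 2.02 in empty, 2.29, 1.70 and 1.66 in SETBP1, 3.04, 4.33 and 2.92 in NRAS, and 0.979, 1.66 and 0.404 with both. The libraries with both lay below those with empty vectors and with NRAS, and reached into the SETBP1 range. Epor fell by 1.26 with both mutants against empty (log2, SE 0.47, adjusted p 0.0458), a call that 8 of the 12 libraries could end when left out: empty replicates 1 and 3, SETBP1 replicate 2, NRAS replicates 1, 2 and 3, and SETBP1+NRAS replicates 1 and 3 (adjusted p 0.0531 to 0.218). With both against NRAS the value was -1.73 (SE 0.46, adjusted p 0.0804) and passed without SETBP1 replicate 3 (adjusted p 0.0190). SETBP1 alone gave -0.39 and NRAS alone 0.47 (adjusted p 0.545 and 0.413).

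The carbonic anhydrases Car1 (chr3:14766216-14808368, mm10, minus strand) and Car2 (chr3:14886273-14900770, mm10, plus strand) differed in level and direction. Car1, the form abundant in red cells, had 8, 19 and 13 counts in empty, 4, 3 and 0 in SETBP1, 6, 6 and 10 in NRAS, and 2, 0 and 6 with both. It was too low for the main test. With no filter on low counts its log2 fold change against empty was -2.48 with SETBP1, -0.79 with NRAS and -2.17 with both (adjusted p 0.0786, 0.540 and 0.0698). In fits without 1 library in which Car1 could be tested, it passed for both against empty without empty replicate 1, SETBP1 replicate 1, SETBP1 replicate 3 or SETBP1+NRAS replicate 3 (adjusted p 0.0375, 0.0392, 0.0104 and 0.0217). It passed for SETBP1 against empty without SETBP1 replicate 1 or SETBP1+NRAS replicate 2 (0.0391 and 0.0464).

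Car2, which is also made by cells of other lineages such as osteoclasts, was higher with SETBP1. Normalised CPM was 59.6, 67.3 and 65.6 in empty, 94.4, 102 and 96.7 in SETBP1, 42.0, 60.1 and 60.1 in NRAS, and 78.5, 91.9 and 87.1 with both. The 6 libraries with SETBP1 all lay above the 6 without. Car2 rose by 0.61 with SETBP1 against empty (log2, SE 0.12, adjusted p 0.00896), by 0.42 with both against empty (SE 0.12, adjusted p 0.0151) and by 0.67 with both against NRAS (SE 0.13, adjusted p 0.0135). With NRAS alone it stood at -0.25 (SE 0.13, adjusted p 0.154). The call for both against empty was lost without empty replicate 1 or SETBP1+NRAS replicate 2 (adjusted p 0.0697 and 0.0630) and with scaling by library size only (0.30, adjusted p 0.0790). The call for both against NRAS was lost without SETBP1+NRAS replicate 2 or 3 (0.0783 and 0.0575).

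Counted by gene, the wider set of megakaryocyte and platelet genes, 24 of them tested, leaned the same way as Itga2b, Gp1bb and Gp9. With both mutants 15 fell and 4 rose against empty (median log2 -1.52, against -0.0094 for all genes), with NRAS 12 fell and 6 rose (-0.96), and with SETBP1 4 fell and 1 rose (-0.16). Over all genes 40.6%, 32.5% and 14.9% differed in these comparisons. The summed level of the list (25 genes) ran otherwise, but Thbs1, a gene also made by other cells, made up most of it. Thbs1 had 246268 counts over the 12 libraries, where Bin2 had 31237 and Gp1ba 339. The sum therefore does not describe the list as a set. It was 3412 to 3828 normalised CPM in empty, 2212 to 3006 in SETBP1, 5028 to 6046 in NRAS and 3642 to 4077 with both. The 3 largest falls with both were log2 values of -3.62 for Clu, a platelet granule protein also made elsewhere, -2.61 for Mmrn1, the granule protein multimerin, and -2.57 for Gp1ba, the chain that binds von Willebrand factor. Gp1ba stood at 5.90 ± 0.933 normalised CPM in empty, 5.05 ± 3.24 in SETBP1, 2.09 ± 0.669 in NRAS and 0.976 ± 0.242 with both. Gp5, another subunit of that receptor, chosen after its values were seen, stood at 13.9 ± 1.89, 14.0 ± 7.59, 5.95 ± 0.346 and 2.93 ± 0.697, and fell by 2.24 with both against empty (SE 0.34, adjusted p 0.000142). All 4 genes of the receptor fell with both mutants.

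With NRAS alone Clu fell by 2.64 and Vwf, the ligand of that receptor, fell by 2.43 on the log2 scale, while Plek, a kinase substrate of platelets and leukocytes, rose by 1.70. With SETBP1 alone Itgb3, the partner chain of Itga2b, fell by 0.99 and Clu fell by 0.97, and Ppbp, a platelet granule chemokine beside Pf4 in the genome, rose by 1.11 (SE 0.29, adjusted p 0.0220), or by 0.61 without SETBP1 replicate 3 (adjusted p 0.0179). Ppbp stood at 43.1, 35.8 and 52.8 normalised CPM in empty, 71.1, 62.6 and 151 in SETBP1, 36.6, 22.5 and 24.8 in NRAS, and 54.0, 68.3 and 65.4 with both. As for Pf4, the 6 libraries with SETBP1 lay above the 6 without. The Ppbp call for SETBP1 was lost without empty replicate 1, 2 or 3 (adjusted p 0.0570 to 0.0786). Between both mutants and NRAS, Clu was the 1 gene of the 24 that passed, at -0.98 (SE 0.20, adjusted p 0.0186), where 1.91% of all genes did. It did not pass without NRAS replicate 3 or any 1 of the SETBP1+NRAS libraries (0.0595 to 0.0866). That number of genes was 9 without SETBP1 replicate 3 (7 lower and 2 higher), 3 without SETBP1 replicate 1 and 2 without SETBP1 replicate 2. The number for NRAS against empty was 10 to 11 without empty replicate 1, NRAS replicate 1 or NRAS replicate 2, and that for SETBP1 was 3, all lower, without empty replicate 1, 2 or 3.

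Of the other erythroid genes 16 were tested, and their median changes were near 0: -0.17 with SETBP1, -0.14 with NRAS and -0.30 with both. Over all genes 14.9%, 32.5% and 40.6% differed in these comparisons. With both mutants 5 fell and 2 rose. Cd36, a fatty acid transporter of many cell types, rose by 3.95 and Aqp1, a water channel, rose by 3.02, while Mfsd2b, a lipid exporter of red cells and platelets, fell by 3.00. With NRAS alone 3 fell and 3 rose, with Cd36 at 2.79, Aqp1 at 2.23 and Sptb, a spectrin of the red cell membrane, at 1.95, the last lost without any 1 of the empty libraries, NRAS replicate 1 or NRAS replicate 2 (adjusted p 0.0614 to 0.103). With SETBP1 alone 2 fell and 2 rose. Cd36 rose by 1.52 (1.26 without SETBP1 replicate 3), Blvrb, a heme-degrading reductase, rose by 1.08 (0.76 without it), and Hemgn, a nuclear protein of blood progenitors, fell by 1.10, which did not hold without SETBP1 replicate 3 (-0.91, adjusted p 0.0507) or without empty replicate 1, 2 or 3 (0.0562 to 0.101). Without any 1 of the empty libraries 2 genes rose with SETBP1 and 0 fell.

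Between both mutants and NRAS 3 of these 16 fell and 1 rose, where 1.38% of all genes fell and 0.528% rose. The falls were Tspan33, a membrane protein of erythroid precursors (log2 -2.41), Hemgn (-1.97) and Tfr2, a transferrin receptor that also binds the erythropoietin receptor (-1.62, SE 0.28, adjusted p 0.00699). The Tspan33 call was lost without NRAS replicate 2 or 3 or any 1 of the SETBP1+NRAS libraries (adjusted p 0.0553 to 0.129). In each of those fits 2 genes fell and 0 rose. Tfr2 stood at 18.0, 13.0 and 16.5 normalised CPM in empty, 11.9, 12.2 and 14.2 in SETBP1, 6.47, 6.90 and 9.25 in NRAS, and 2.24, 3.46 and 1.61 with both. The libraries with both mutants lay below all NRAS libraries, which lay below all SETBP1 and empty libraries.

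**Figure D4:**
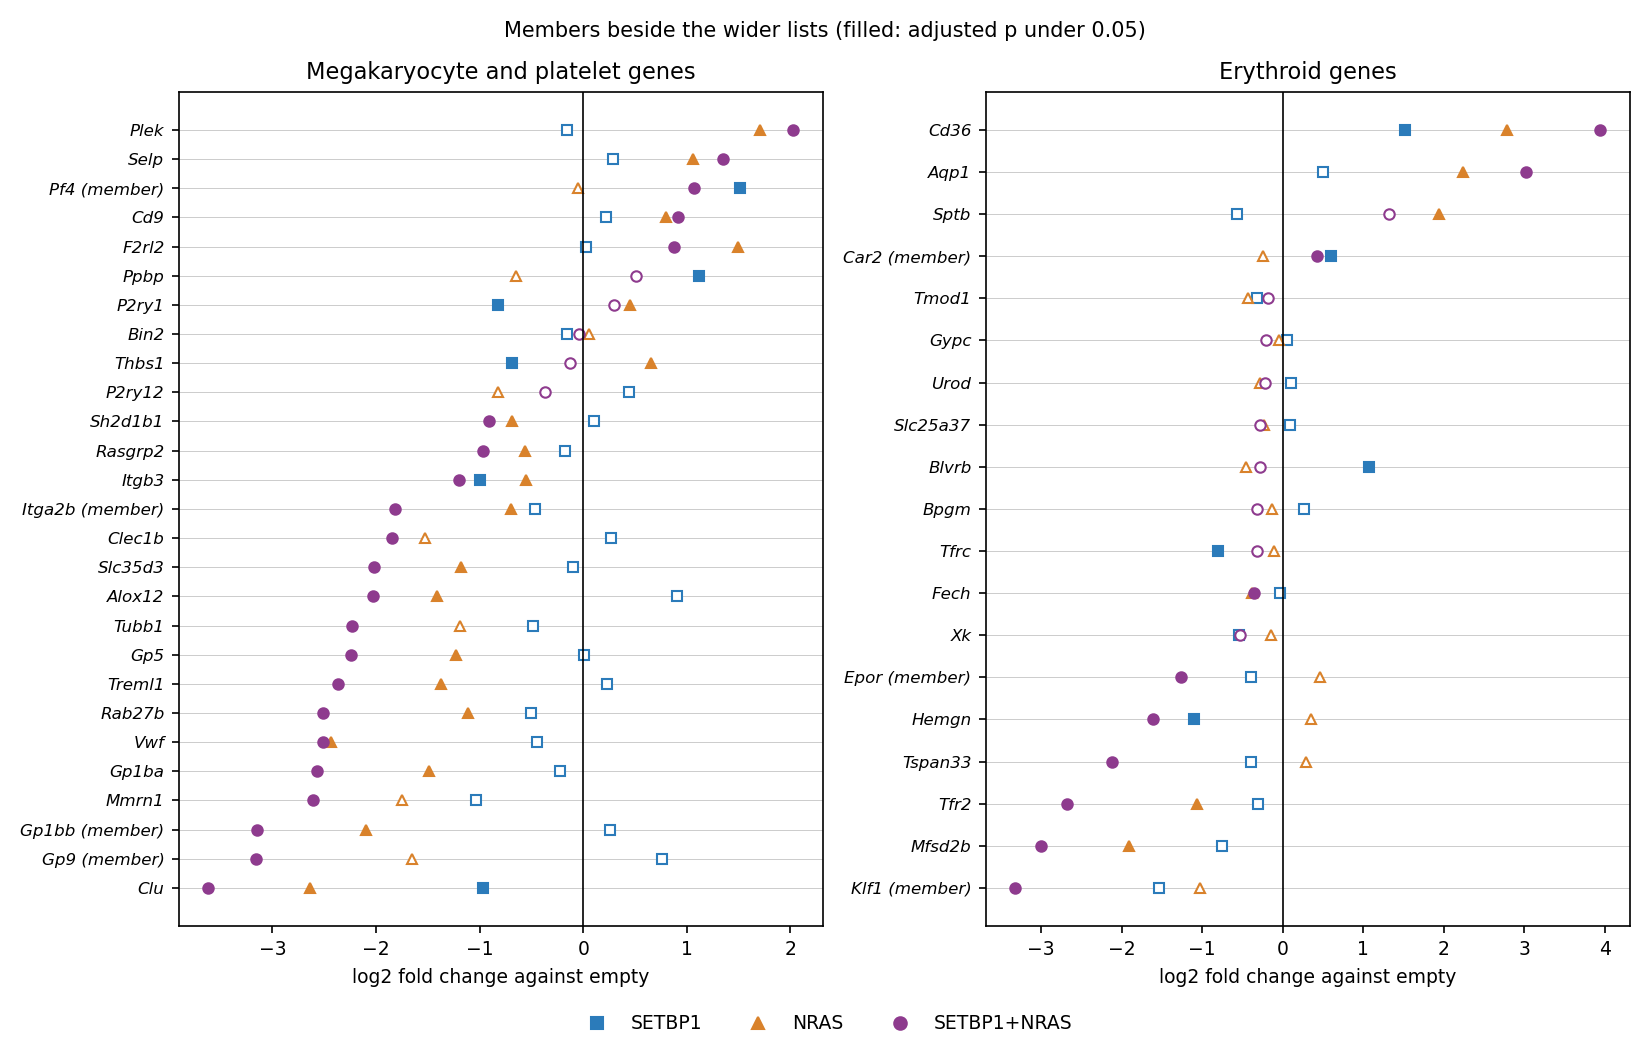
Log2 fold change against empty (x axis) of the members tested and of wider megakaryocyte and erythroid genes that were tested and are reported here, for SETBP1 (squares), NRAS (triangles) and both mutants (circles); filled symbols have an adjusted p under 0.05. Most megakaryocyte circles lie left of 0, with Pf4 at 1.07, and the erythroid genes run from Klf1 at -3.32 to Cd36 at 3.95.

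The partners of GATA1 were split in direction. Of 22 partners and other factors of both lineages, 10 fell and 6 rose with both mutants (median log2 -0.18), 8 fell and 6 rose with NRAS (-0.06), and 5 fell and 3 rose with SETBP1 (-0.09). Over all genes 40.6%, 32.5% and 14.9% differed in these comparisons. The number with SETBP1 was 4, 5 and 3 in all without empty replicate 1, 2 and 3. Klf2 rose by 2.20 with both mutants, Gfi1, the paralog of Gfi1b that acts in granulocytes, fell by 1.33 and Runx1, a factor of megakaryocytes and stem cells, fell by 1.08. With both against NRAS, where Gata1 fell by 1.80 and 1.91% of all genes passed, Klf2 rose by 0.81 as the 1 gene of the 22 that passed. The Klf2 call was lost without NRAS replicate 2 (adjusted p 0.0503). The number that passed was 5, 2 and 9 without SETBP1 replicate 1, 2 and 3. In the signalling of erythropoietin and thrombopoietin, 6 of 12 genes fell and 3 rose with both mutants, where 19.8% of all genes fell and 20.8% rose. Kit, the stem cell factor receptor, fell by 2.31 on the log2 scale and Pim1, a kinase induced by the pathway, fell by 2.14. Of 7 other carbonic anhydrases tested, 3 rose with both mutants and 0 fell, a share near the 40.6% of all genes that differed (20.8% higher). Car5b rose by 4.31 (on 0, 4 and 4 counts in the empty libraries, near the floor) and Car12 by 1.47. Car13 rose by 0.67, a call lost without empty replicate 3 (adjusted p 0.0502).

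Many genes of other cells that make GATA1 were also lower with both mutants than in empty. Of 13 mast cell and basophil genes tested 10 fell and 0 rose in that comparison (median log2 -2.81), where 19.8% of all genes fell and 20.8% rose. With both against SETBP1 7 fell and 2 rose, where 21.5% of all genes fell and 20.9% rose. With both against NRAS 3 fell and 0 rose, where 1.38% of all genes fell and 0.528% rose. Their summed level (16 genes, of which Mrgprb1 was at 0 in all libraries) was 4528 to 4630 normalised CPM in empty, 2761 to 3574 in SETBP1, 2121 to 2793 in NRAS and 1547 to 1951 with both. Fcer1a, a chain of the IgE receptor, fell by 5.003 on the log2 scale, Prss34, a basophil protease, fell by 4.22 and Ms4a2, another chain of that receptor, fell by 3.78. Of 5 eosinophil genes tested, 3 fell and 0 rose with both mutants against empty, and 1 fell with each single mutant. The 9 eosinophil genes summed to 201 to 349 normalised CPM in empty, 15.1 to 249 in SETBP1, 137 to 273 in NRAS and 28.3 to 115 with both. In this sum the SETBP1 and NRAS groups each overlapped empty. The mast cell and basophil sum had the same order of groups as the Gata1 means, and its libraries did not overlap between empty and any mutant group. The 10 neutrophil genes summed to 11358 to 12809 normalised CPM in empty, 5191 to 7423 in SETBP1, 5894 to 7566 in NRAS and 1992 to 2494 with both, so granulocyte genes were lowest in the same libraries. In bulk RNA, fewer cells of a type and less RNA per cell cannot be told apart, and the part of any of these cells in the Gata1 values was not tested.

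Across the 12 libraries the 9 genes did not form a single pattern. As descriptions over libraries that share their groups, log2 CPM of Gata1 correlated with that of Itga2b at Pearson's r 0.96, with Gp1bb at 0.80, with Epor at 0.76 and with Gp9 at 0.72, but with Gfi1b at 0.30 and with Pf4 at -0.44. Gp1bb and Gp9 correlated at 0.96. Pf4 ran opposite to Gfi1b (-0.94) and Klf1 (-0.83) and with Car2 (0.68). SETBP1 replicate 3 was the highest library for Pf4 and the lowest for Gfi1b and Klf1, and correlations without it were not computed. The genes whose log2 CPM was most like the mean of the 9 standardised members were Tfr2 (0.994), Matk (0.986), Camp (0.969), Bcas1 (0.969), Fcnb (0.966), Mpo (0.966), Per3 (0.962) and Cxcr4 (0.961). Those most like Gata1 were Cd55 (0.972), Tfr2 (0.964), Itga2b (0.960), Sept1 (0.956) and Optn (0.956).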

How the data were processed

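The authors deposited 1 table of whole-number read counts per gene symbol for 12 mouse RNA-seq libraries, not normalised; per the submitters' processing notes the genome build was mm10, and STAR and DESeq2 were named with no role. Counting rules, strand and annotation are not given in the sources used here. RNA came from a micro-scale kit and a low-input SMART-Seq preparation, per the labels. Genes were kept by filterByExpr (minimum count 10, minimum total 15), which left 10993 genes with 99.9% of the counts, and Car1 did not pass. Libraries were scaled by TMM and tested by edgeR 4.0.16 (R 4.3.3) with a quasi-likelihood F test on 4 group means, two-sided, with Benjamini-Hochberg adjustment over all genes and a threshold of 0.05. Normalised CPM uses the TMM factors, RPKM the summed exon length in GENCODE, and correlations log2 CPM with a prior count of 2. The fit was tested on simulated counts. All 10 members were named, with up to 3 genes a list and comparison past the threshold by size, and the genes most alike at a mean of at least 5 CPM. A gene that the rule would name is not reported here. The members, lists and rules were chosen with earlier results of these data known. Alternatives were DESeq2 1.42.0, other scaling, no filter, only the groups compared, a replicate block and leaving out each library.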

Additional observations from a re-analysis of the deposited data

How the results depend on the processing

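In the 63 results of single members (9 genes, 7 comparisons), DESeq2 left 57 on the same side of the threshold and added 6 calls, DESeq2-style size factors left all 63, library-size scaling added 2 and lost 1, no low-count filter added 3 and lost 1, and a fit of only the groups compared, which gave 52 of the 63 results (no interaction, and no value for Gp9 in both against NRAS or Klf1 in both against SETBP1), left 44, added 6 and lost 2. No member changed sign in the results that these settings gave. Library-size scaling moved the median log2 change of all genes by -0.12 for both mutants against empty, and moved the split of called genes from 2282 higher and 2180 lower to 1656 and 2908 there, from 1868 and 1708 to 1379 and 2265 for NRAS against empty, and from 2293 and 2368 to 1720 and 2888 for both against SETBP1. It gave 3 higher and 4 lower for the interaction.

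With only the groups compared, genes called were 110 for SETBP1 against empty (1633 in the fit of all groups), 5261 for NRAS against empty (3576) and 6059 for both against empty (4462). They were 883 for both against NRAS (210), 394 higher and 489 lower, 3083 for both against SETBP1 (4661) and 2848 for NRAS against SETBP1 (4495). Members called were then 1, 5 and 7 for SETBP1 against empty, NRAS against empty and both against NRAS. DESeq2 called 379 genes and 5 members for both against NRAS, and 81 genes and 1 member for the interaction, where no filter gave 14 genes and edgeR 5. In fits of only the groups compared, genes called fell where the SETBP1 group was one of the groups and rose where it was not. Fewer libraries enter every such fit, and the cause of these changes was not tested.

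Leaving out 1 library gave 390 to 3191 genes and 1 to 5 members called for SETBP1 against empty, 2681 to 5224 and 2 to 5 for NRAS against empty, 3658 to 5969 and 6 to 10 for both against empty, 93 to 836 and 2 to 7 for both against NRAS, and 1 to 110 and 0 to 1 for the interaction. Log2 values that changed sign, all without a call, ranged from -0.22 to 0.58 for Gp1bb and -0.11 to 1.12 for Gp9 (SETBP1 against empty), -0.064 to 0.30 for Gfi1b and -0.36 to 0.13 for Pf4 (NRAS against empty), -0.69 to 0.18 for Pf4 (both against SETBP1), -0.079 to 1.07 for Klf1 and -0.20 to 0.037 for Gata1 (NRAS against SETBP1), and -0.075 to 0.45 for Gfi1b, -0.092 to 0.14 for Car2 and -0.64 to 0.23 for Pf4 (interaction).

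Libraries with the same replicate number did not visibly deviate together (correlations of -0.127 to 0.124 over 18 pairs, against -0.141 to 0.160 over 36 pairs with different numbers). With 3 libraries a group this cannot exclude that equal numbers share a mouse, culture or batch, which the labels do not say. With a replicate block 1177, 3339, 4276, 164, 4404, 4275 and 6 genes passed for SETBP1, NRAS and both over empty, both over NRAS, both over SETBP1, NRAS over SETBP1 and the interaction, in that order, with 3, 3, 8, 3, 4, 5 and 0 members, and Gfi1b for both against empty was the call lost (adjusted p 0.0564).

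For the genes that are not members, the same settings were added after seeing the data: over 43 results and 774 settings 31 lost the call and 0 changed sign. Gp9, Klf1, Epor and Car1 were read from 7 to 165 counts in all in a group; the part of depth in their errors was not tested.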
